A study of Mus musculus with 6 samples.

Results

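A set of 10 genes of 2 kinds of microvillous cell were followed in main olfactory epithelium, 6 of tuft-like cells (Trpm5, Chat, Pou2f3, Gnat3, Avil and Il25) and 4 of ionocyte-like cells (Ascl3, Foxi1, Cftr and Coch). They were taken by symbol from a table of 53686 genes, and all 10 were in it. Dissected epithelium came from C57BL/6J mice, 3 libraries from wild-type animals and 3 from animals hemizygous for 5x21-OR1A1, a transgene with the human odorant receptor OR1A1. Every library was poly-A RNA of the whole tissue. The labels used here give neither age nor pooling and call the libraries replicates without naming separate animals, so a p-value here covers the spread between these libraries. Xist and Ddx3y counts put 1 female and 2 male libraries in the wild-type group and 2 female and 1 male in the transgenic one, so each group holds at least 2 animals.

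Microvillous cells lie at the surface of the olfactory epithelium among the sensory neurons and supporting cells. The tuft-like kind uses a taste-type cascade in which a G protein and phospholipase C raise calcium, which opens the TRPM5 channel, and such cells are known to release acetylcholine and the cytokine IL-25. The ionocyte-like kind carries the chloride channel CFTR and proton pumps, and is specified by the transcription factors ASCL3 and FOXI1.

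Both kinds of gene were detected, and neither differed between genotypes past the test. By edgeR's quasi-likelihood test with Benjamini-Hochberg adjustment over 19267 genes, 0 of the 10 members passed an adjusted p of 0.05, against 2.71% of all genes tested (0.519% higher and 2.2% lower in transgenic libraries). Of the members, 9 had enough counts to test and Chat did not. Of these 9, 3 members, Cftr, Foxi1 and Avil, were higher in all 3 transgenic libraries than in all 3 wild-type ones, a pattern that 11.4% of tested genes showed. The same 3 had an unadjusted p under 0.05, as did 7.48% of all tested genes in the higher direction and 17.1% in either. No member was lower without overlap, against 12.5% of tested genes. DESeq2 called 1 member, Cftr, against 6.22% of all genes, and limma-voom called 0, against 2.61% of all genes (0.545% higher).

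**Figure D1:**
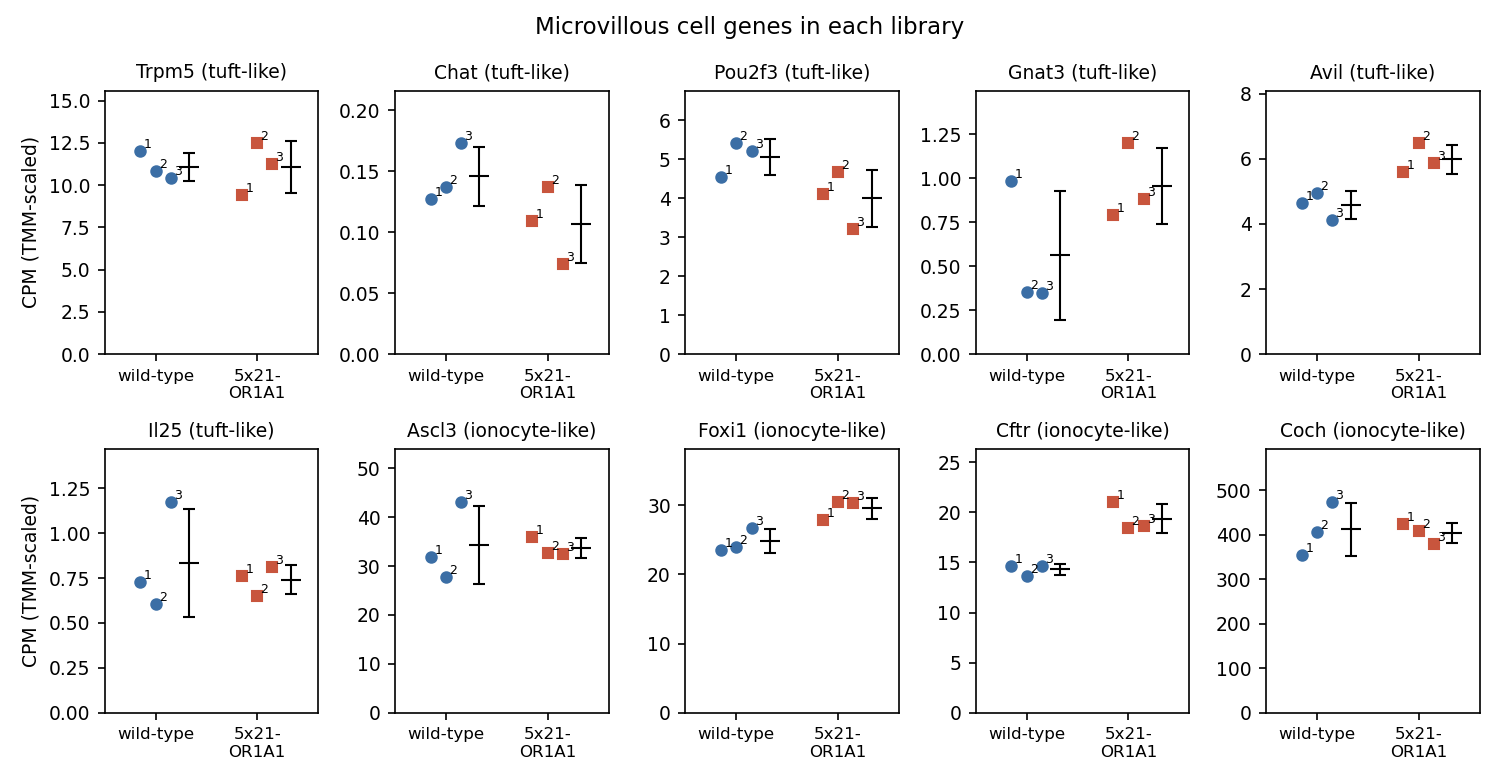
Counts per 1000000 (CPM, on TMM-scaled library totals) of the 10 genes in each library; circles are wild-type and squares 5x21-OR1A1 libraries, with the replicate number beside each, and the black mark and bar give the mean and SD of 3 libraries. Only in the panels of Avil, Foxi1 and Cftr do all 3 squares sit above all 3 circles, with Cftr at 18.4 to 21.1 against 13.7 to 14.6 CPM.

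The tissue's libraries held 27506217 to 35804712 counts. Mature olfactory neuron markers were lower in the transgenic libraries, with a summed level of 13264 to 14667 CPM against 19407 to 25468 CPM for 13 genes, of which 4 fell and 0 rose by edgeR. Markers of supporting (sustentacular) cells, the cells that surround the neurons, summed to 21494 to 22109 CPM in transgenic and 22868 to 24308 CPM in wild-type libraries, and 0 of 9 tested passed. Collagen and bone markers were lowest in wild-type library 2, at 2514 CPM, while the other 5 libraries lay between 5723 and 6775 CPM. In whole tissue, fewer cells of a type and less RNA per cell cannot be told apart.

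The promoters of the 3 genes whose groups did not overlap, and of Ascl3, a transcription factor gene of the ionocyte lineage, are shown so that the sequence can be read beside the values. Each is the 250 bases before the RefSeq start, on the gene's own strand and in build GRCm38.p6, at chr10:127000459-127000708 for Avil (plus strand), chr7:109731733-109731982 for Ascl3 (minus), chr11:34208090-34208339 for Foxi1 (minus) and chr6:18170437-18170686 for Cftr (plus). Capitals mark any of 4 strings searched on both strands, namely ATGCAAA, a core of the octamer that POU factors such as POU2F3 bind, GTAAACA, a forkhead core, CAGCTG, an E-box of basic helix-loop-helix factors, and TATAAA.
Avil: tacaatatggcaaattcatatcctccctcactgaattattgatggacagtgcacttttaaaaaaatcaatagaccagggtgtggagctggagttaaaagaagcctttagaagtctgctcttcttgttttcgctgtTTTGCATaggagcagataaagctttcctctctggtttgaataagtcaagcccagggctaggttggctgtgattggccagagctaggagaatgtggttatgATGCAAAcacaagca
Ascl3: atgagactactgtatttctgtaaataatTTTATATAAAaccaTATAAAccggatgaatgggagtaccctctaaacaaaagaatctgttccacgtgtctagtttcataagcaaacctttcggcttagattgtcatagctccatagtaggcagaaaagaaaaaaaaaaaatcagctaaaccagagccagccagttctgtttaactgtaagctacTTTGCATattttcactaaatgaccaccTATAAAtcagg
Foxi1: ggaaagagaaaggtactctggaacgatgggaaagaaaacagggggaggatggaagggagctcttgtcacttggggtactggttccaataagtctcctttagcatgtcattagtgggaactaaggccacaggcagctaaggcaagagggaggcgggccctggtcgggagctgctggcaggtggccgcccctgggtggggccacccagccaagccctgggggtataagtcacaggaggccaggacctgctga
Cftr: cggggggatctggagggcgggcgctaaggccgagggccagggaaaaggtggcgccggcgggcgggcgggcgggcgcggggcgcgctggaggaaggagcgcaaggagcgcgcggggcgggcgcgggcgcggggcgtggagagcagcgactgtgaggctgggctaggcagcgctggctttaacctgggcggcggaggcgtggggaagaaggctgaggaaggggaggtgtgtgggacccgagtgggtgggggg

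The octamer core stood in 4.12% of 32851 such windows over all genes. Among the 8 members with a window, it was in Avil, 115 and 15 bases before the start, and in Ascl3, 38 bases before it. TATAAA stood in 12.4% of all windows and, of the members, in Ascl3, 4 times, the nearest 11 bases before the start and a pair of them sharing bases. CAGCTG stood in 13% of windows and, of the members, in Chat. GTAAACA stood in 3.17% of windows and in 0 of the 8. The Cftr window is 76.4% G and C and that of Coch 74.8%, against 34.8% for Ascl3 and a median of 52.4% over all windows. These are matches of letters, not measured binding sites.

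The ionocyte-like genes were the more abundant kind. Per kilobase of exon, which allows levels of different genes to be compared, the mean level over the 6 libraries was 136 CPM per kb for Coch, 48.5 for Ascl3, 11.5 for Foxi1 and 2.17 for Cftr. The tuft-like genes followed at 1.73 for Trpm5, 1.55 for Avil, 1.46 for Pou2f3, 0.741 for Il25, 0.558 for Gnat3 and 0.0268 for Chat. The ranges of the 4 upper genes did not overlap their upper neighbours, and Ascl3 exceeded Trpm5 by 23.3 to 37.9 times in single libraries. Further down, neighbours from Cftr to Gnat3 overlapped across libraries. Avil exceeded Pou2f3 in 3 of 6 libraries, so their order is within the spread, whereas Cftr exceeded Trpm5 in 6 of 6. Chat stood apart at the bottom, 44.3 to 112 times below Trpm5 per kb.

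**Figure D2:**
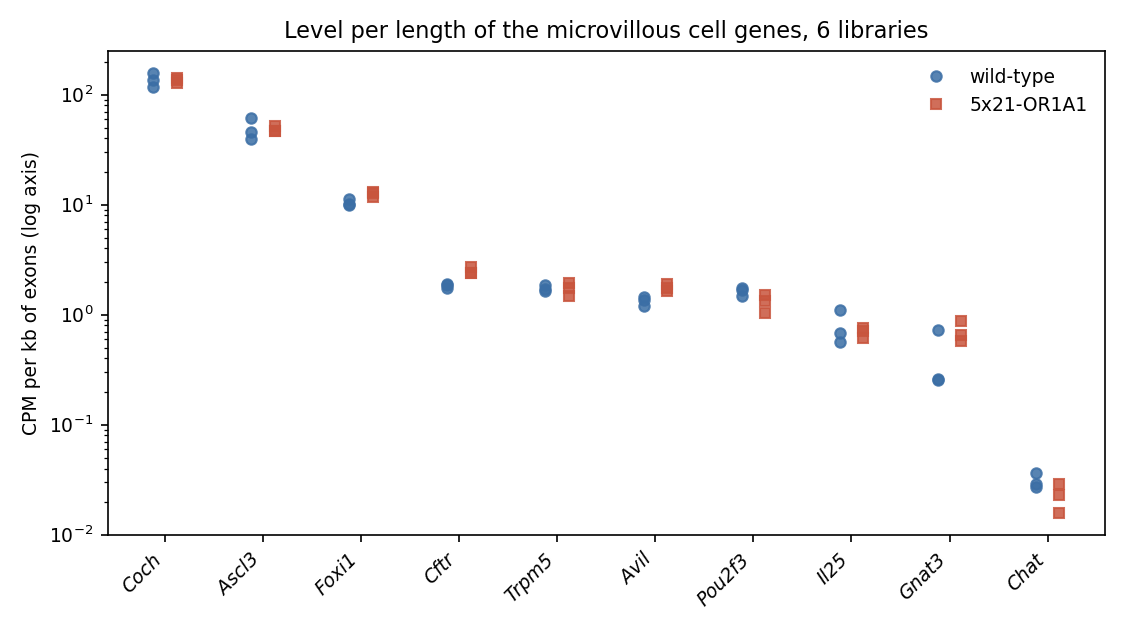
Level per kilobase of exon (CPM per kb, log axis) of the 10 genes, ordered by their mean; circles are the 3 wild-type and squares the 3 5x21-OR1A1 libraries. The genes run from Coch at 119 to 158 down to Chat at 0.0156 to 0.0367 CPM per kb, and the 4 ionocyte-like genes hold the upper 4 places by mean.

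Pou2f3 (chromosome 9, 43123939 to 43210369, minus strand, GRCm38) encodes the POU-domain transcription factor needed to form tuft cells. It stood at 4.54, 5.41 and 5.22 CPM in wild-type libraries 1 to 3 and at 4.11, 4.66 and 3.20 CPM in the transgenic ones. The groups overlapped only through transgenic library 2, which lay just above wild-type library 1. Its log2 fold change was -0.34 (SE 0.18, edgeR adjusted p = 0.387), and the 95% interval of the change ran from 0.593-fold to 1.05-fold.

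Trpm5 (chromosome 7, 143069153 to 143094642, minus strand) encodes the calcium-activated cation channel at the end of the cascade. The wild-type libraries held 11.99, 10.9 and 10.4 CPM and the transgenic ones 9.42, 12.5 and 11.3 CPM. The lowest and the highest of the 6 libraries were both transgenic. The group means were 11.1 ± 0.818 and 11.1 ± 1.54 CPM (SD, n = 3 each), a log2 fold change of -0.01 (SE 0.13, edgeR adjusted p = 0.988). Its interval of 0.804-fold to 1.23-fold leaves out a change of 1.5-fold either way. The gene shares 220 exonic bases with Tssc4 on the other strand, which was at 50.8 to 60.7 CPM, and without strand reads over those bases cannot be told apart.

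Gnat3 (chromosome 5, 17962549 to 18019834, plus strand) encodes gustducin, the G protein alpha subunit upstream of TRPM5. It was sparse: the wild-type libraries had 31, 13 and 10 counts, the transgenic ones 29, 35 and 24. In CPM these were 0.984, 0.357 and 0.346 against 0.790, 1.20 and 0.883. Wild-type library 1 lay among the transgenic libraries and the other 2 below them all. The log2 fold change was 0.76 (SE 0.44, edgeR adjusted p = 0.436), with an interval from 0.835-fold to 3.45-fold, the widest of the 9. With each library left out in turn the log2 fold change ran from 0.52 to 1.43. It was highest without wild-type library 1 (edgeR adjusted p = 0.0809). Without wild-type library 2 or 3 it was 0.52 in both cases (edgeR adjusted p = 0.649 and 0.659). Wild-type library 1 was the only female library of its group, so leaving it out also changes the balance of the sexes. With sex as a covariate the log2 fold change was 0.58 (edgeR adjusted p = 0.476).

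Chat (chromosome 14, 32408203 to 32465989, minus strand) encodes choline acetyltransferase, the enzyme that makes acetylcholine. It was close to undetected, with 4, 5 and 5 counts in the wild-type libraries against 4, 4 and 2. With 14 and 10 counts per group it did not reach the count filter. Slc18a3, which lies within the Chat gene without sharing exonic bases and encodes the vesicular acetylcholine transporter, had 1 count in all 6 libraries together.

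Il25 (chromosome 14, 54932695 to 54935837, plus strand) encodes the cytokine by which tuft cells start type 2 immune responses. The wild-type libraries had 23, 22 and 34 counts, the transgenic ones 28, 19 and 22, or 0.730, 0.604 and 1.18 against 0.763, 0.651 and 0.810 CPM. Wild-type library 3 was the highest and library 2 the lowest of the 6. The log2 fold change was -0.16 (SE 0.32, edgeR adjusted p = 0.844) and its interval from 0.535-fold to 1.49-fold. Counting alone gives a coefficient of variation near 20.1% for 1 library at this depth. Differences between the groups as large as the ends of the interval could be missed.

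Avil (chromosome 10, 127000709 to 127020994, plus strand) encodes advillin, an actin-binding protein of the tuft cell's microvilli that sensory neurons also make. It was at 4.63, 4.97 and 4.11 CPM in wild-type and 5.58, 6.48 and 5.89 CPM in transgenic libraries. Every transgenic library lay above every wild-type one, by at least the gap between 4.97 and 5.58 CPM. The log2 fold change was 0.39 (SE 0.14), an interval of 1.04-fold to 1.64-fold, with an unadjusted p of 0.0276 and an edgeR adjusted p of 0.225. Avil shares 165 exonic bases with Tsfm on the other strand, which was at 24.4 to 30.9 CPM and had a log2 fold change of 0.04, and without strand reads over those bases cannot be told apart.

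Ascl3 (chromosome 7, 109727465 to 109731726, minus strand) encodes the basic helix-loop-helix factor of the ionocyte lineage. The wild-type libraries held 31.8, 27.7 and 43.1 CPM and the transgenic ones 36.0, 32.6 and 32.5 CPM. Wild-type libraries spread on both sides of the transgenic ones, with a coefficient of variation of 23.3% against 5.94%. The log2 fold change was -0.02 (SE 0.15, edgeR adjusted p = 0.966), with an interval from 0.771-fold to 1.26-fold.

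Foxi1 (chromosome 11, 34204338 to 34208089, minus strand) encodes the forkhead factor that turns on proton pump and transporter genes in ionocytes. It was at 23.6, 24.0 and 26.8 CPM in wild-type and 27.8, 30.5 and 30.4 CPM in transgenic libraries. The groups did not overlap, and the gap between wild-type library 3 and transgenic library 1 was narrow. The means were 24.8 ± 1.73 and 29.6 ± 1.51 CPM (SD, n = 3 each). The log2 fold change was 0.26 (SE 0.08), an interval of 1.04-fold to 1.37-fold, and did not pass (unadjusted p = 0.0159, edgeR adjusted p = 0.177).

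Cftr (chromosome 6, 18170687 to 18322768, plus strand) encodes the chloride and bicarbonate channel for which ionocytes are best known, and other airway and gland cells make it too. It came nearest to the threshold. The wild-type libraries held 460, 498 and 423 counts, or 14.6, 13.7 and 14.6 CPM, and the transgenic ones 773, 538 and 505 counts, or 21.1, 18.4 and 18.6 CPM. Every transgenic library was above every wild-type one, and transgenic library 1 was the highest. The means were 14.3 ± 0.545 and 19.4 ± 1.47 CPM (SD, n = 3 each), a log2 fold change of 0.44 (SE 0.09), or 1.36-fold with an interval from 1.17-fold to 1.58-fold. The edgeR adjusted p was 0.0560 (unadjusted p = 0.00167).

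Whether Cftr counted as changed depended on the analysis. It passed in DESeq2 (log2 fold change 0.43, adjusted p = 0.0146; 1.56% of genes were called higher), in edgeR with genes kept at 1 CPM in 3 libraries (adjusted p = 0.04997; 3.25% of genes called, 0.647% higher) and with counts scaled to sustentacular markers (adjusted p = 0.0314; 2.52% of genes called, 0.991% higher). It missed the threshold in limma-voom (adjusted p = 0.0618), in edgeR with RLE scaling (0.0565), library totals alone (0.0879), no count filter (0.0607) or sex as a covariate (0.0793), and with each library left out in turn (edgeR adjusted p from 0.0749 to 0.219). Its log2 fold change lay between 0.37 and 0.54 in these settings, and was 0.37 without transgenic library 1. Markers of motile ciliated cells summed to 685 to 696 CPM in transgenic and 543 to 671 CPM in wild-type libraries. Of 9 tested, 0 passed the threshold, none lacked counts in all libraries, and Foxj1 was at 214 to 260 CPM. The median log2 fold change of the 9 was 0.21, with 8 above 0 and 1 below. Of these, 4 were higher without overlap, against 11.4% of all tested genes. An unadjusted edgeR p under 0.05 in the higher direction was seen for 3, against 7.48% of all tested genes. Gland markers, 0 of 10 past the threshold, summed to 31210 to 56626 CPM in transgenic and 36720 to 54635 CPM in wild-type libraries. Their log2 fold changes ran from -0.30 to 4.67, with 6 above 0 and 4 below, and 0 were without overlap. Bpifb9a and Bpifb9b had the highest (4.48 and 4.67, edgeR adjusted p = 0.200 and 0.197). Both peaked in transgenic library 1, at 3089 and 8798 CPM, the library in which Cftr was also highest. The part of these cells in the Cftr values was not tested.

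Coch (chromosome 12, 51593341 to 51605771, plus strand) encodes cochlin, a secreted extracellular matrix protein best known from the inner ear. It was by far the most abundant member, at 355, 406 and 474 CPM in wild-type and 424, 409 and 380 CPM in transgenic libraries. The highest and the lowest value were both wild-type. The log2 fold change was -0.03 (SE 0.12, edgeR adjusted p = 0.939), with an interval from 0.808-fold to 1.19-fold.

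**Figure D3:**
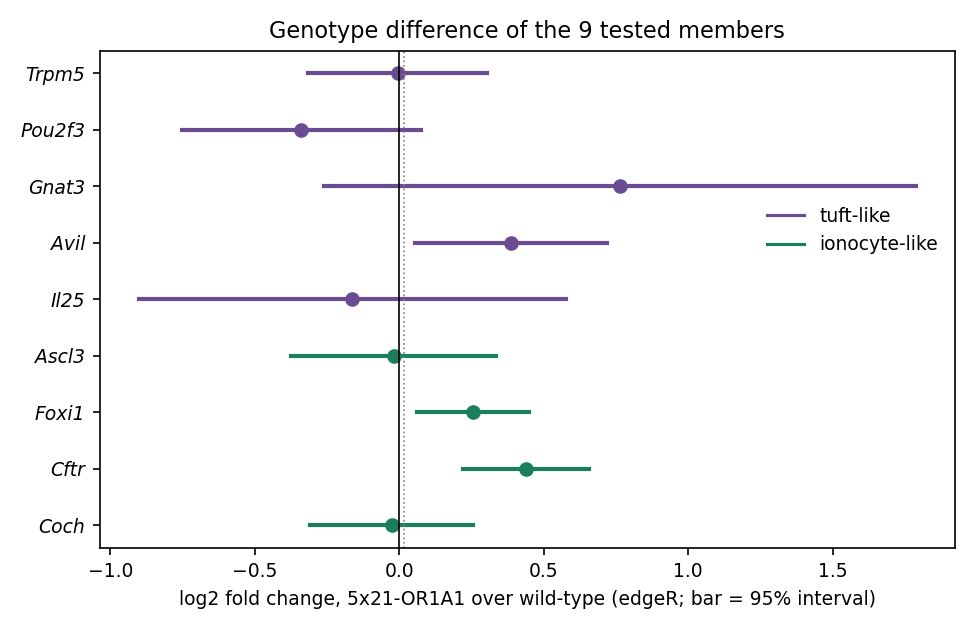
Log2 fold change of 5x21-OR1A1 over wild-type for the 9 tested members (x axis; point, edgeR estimate; bar, 95% interval), tuft-like in purple and ionocyte-like in green, with the median of all tested genes dotted. The intervals of Avil, Foxi1 and Cftr lie above 0, those of the other 6 span it, and none of the 9 passed an adjusted p of 0.05.

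Summed over each kind, the members gave level totals that overlapped between genotypes. The 6 tuft-like genes summed to 23.0, 22.3 and 21.4 CPM in wild-type and 20.8, 25.6 and 22.1 CPM in transgenic libraries, a log2 ratio of 0.04. The 4 ionocyte-like genes summed to 425, 472 and 559 CPM against 509, 491 and 461 CPM, a log2 ratio of 0.01. Coch made up 84.0% of the ionocyte-like sum, and without it the log2 ratio was 0.17. Trpm5 made up 49.1% of the tuft-like sum. These sums describe genes chosen with earlier results known and carry no test.

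The listed signalling genes of the taste-type cascade around TRPM5, Plcb2, Itpr3, Gnb3 and Gng13, all had enough counts to test. The genes of the list without enough counts were all receptor genes. Of 17 signalling and receptor genes, 6 were tested, 0 rose and 1 fell, with a median log2 fold change of 0.03 beside 0.02 over all tested genes. The gene that fell was Gng13, a G protein gamma subunit that mature olfactory neurons also use, from 461 ± 88.8 to 263 ± 10.9 CPM (SD, n = 3 each; edgeR adjusted p = 0.0292), and the neuron markers given above were lower in the same libraries. The IP3 receptor gene Itpr3 stood at 35.7, 19.6 and 24.4 CPM in wild-type and 32.0, 30.9 and 29.7 CPM in transgenic libraries. Wild-type library 2, which was lowest in collagen and bone markers, was also lowest in Itpr3, and the part of that in the value was not tested. Plcb2, the phospholipase of the cascade (log2 fold change 0.49, edgeR adjusted p = 0.542), and Gnb3, its G protein beta subunit (0.50, 0.439), were at no more than 2.23 and 1.62 CPM in any library and did not pass. Tas1r1 (-0.27, edgeR adjusted p = 0.420) and Tas1r3 (-0.15, 0.832), subunits of the savoury taste receptor, did not pass either.

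The 8 bitter taste receptor genes of the list had between 0 and 27 counts in all 6 libraries together. Tas2r108 gave 7, 6 and 1 counts in the wild-type libraries against 4, 4 and 5. Of the list, 5 genes had 0 counts in every library, among them the succinate receptor gene Sucnr1 and the fatty acid receptor gene Ffar3. A count of 0 over the 189546116 counts of the series allows up to 3 counts, or 0.0158 CPM, for counting error alone.

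Of 18 tuft cell identity and lipid mediator genes, all were tested, 0 rose and 0 fell, with a median log2 fold change of 0.15. Dclk1, a kinase used as a tuft cell marker that neurons also make, was at 41.1, 43.7 and 44.7 CPM in wild-type and 50.8, 60.8 and 57.0 CPM in transgenic libraries. The groups did not overlap (log2 fold change 0.38, SE 0.09, edgeR adjusted p = 0.0692). Bmx, a tyrosine kinase gene (0.56, adjusted p = 0.293), did not pass. Krt18, an epithelial keratin gene, was lower in every transgenic library (870.5 to 968 CPM against 1083 to 1298 CPM) and did not pass either (-0.35, adjusted p = 0.170). Ptgs1 and Alox5ap, of prostaglandin and leukotriene synthesis, had log2 fold changes of 0.16 and 0.15. Leukocyte markers summed to 121 to 191 CPM in transgenic and 73.9 to 134 CPM in wild-type libraries. Of the 10, 1 passed, Jchain, which was higher (log2 fold change 1.52, edgeR adjusted p = 0.0438), against 0.519% of all tested genes called higher. Jchain had means of 76.0 CPM in transgenic and 26.5 CPM in wild-type libraries, a large part of the difference in the sum. The median log2 fold change of the 10 was 0.36, with 9 above 0 and 1 below.

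Of 12 genes that handle acetylcholine, 7 had enough counts and were tested, among them 4 of 8 receptor genes and both degrading enzymes, and 0 passed in either direction, with a median log2 fold change of 0.35. Chrm3, a muscarinic receptor gene, was at 10.5, 7.49 and 7.74 CPM in wild-type and 11.96, 8.81 and 11.7 CPM in transgenic libraries (0.34, edgeR adjusted p = 0.389). Chrm1, another muscarinic receptor gene, was at 7.81, 2.83 and 3.28 against 7.14, 9.36 and 9.94 CPM (0.92, SE 0.37, adjusted p = 0.252). In both genes wild-type library 1 lay within the transgenic range. Ache, the enzyme that breaks acetylcholine down, was at 7.72 ± 1.17 and 7.72 ± 0.948 CPM (SD, n = 3 each), and the related enzyme gene Bche had a log2 fold change of 0.35 (adjusted p = 0.347).

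The genes around IL-25 were mostly low. The list of 14 held its receptor subunits, the alarm cytokines Il33 and Tslp with receptors, and genes of the type 2 response. Of these 14, 9 were tested and 0 passed, with a median log2 fold change of 0.15. Il17rb, the IL-25 receptor subunit, was at 1.75, 2.20 and 1.76 CPM in wild-type and 2.07, 2.06 and 2.21 CPM in transgenic libraries, and Il17ra, its partner subunit, at 19.1 ± 0.985 and 18.8 ± 1.62 CPM (SD, n = 3 each). Il33, an epithelial alarm cytokine and the most abundant of the list per kb, was at 160, 194 and 194 CPM against 204, 208 and 211 CPM. Its groups did not overlap, and the change did not pass (log2 fold change 0.18, edgeR adjusted p = 0.378). Il4ra, the receptor chain shared by IL-4 and IL-13, was at 38.6, 39.3 and 41.3 CPM against 34.3, 36.6 and 33.3 CPM (-0.19, adjusted p = 0.238).

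The wider ionocyte programme was well expressed and showed no called change. Of 18 genes, 17 were tested, 0 rose and 0 fell, with a median log2 fold change of 0.09. The proton pump subunit genes Atp6v1c2, Atp6v1b1 and Atp6v0a4, of a pump that acidifies the cell surface, had values of 0.08, 0.09 and 0.08, at 100.4, 113 and 51.4 CPM on average in transgenic libraries. Atp6v1b1, a known FOXI1 target, was at 116, 104 and 99.9 CPM in wild-type and 110, 119 and 111 CPM in transgenic libraries, so that the ranges overlapped. Slc12a2, the sodium, potassium and chloride cotransporter, was at 334 ± 24.8 and 301 ± 35.8 CPM (SD, n = 3 each; log2 fold change -0.15, edgeR adjusted p = 0.555), and supporting and gland cells also make it. Tfcp2l1, a transcription factor gene of ionocytes and gland ducts, was at 55.0, 24.6 and 30.2 CPM against 46.8, 50.2 and 52.9 CPM. Like Chrm1, it was within the transgenic range or above it in wild-type library 1 and below it in the other 2 (0.45, adjusted p = 0.438).

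**Figure D4:**
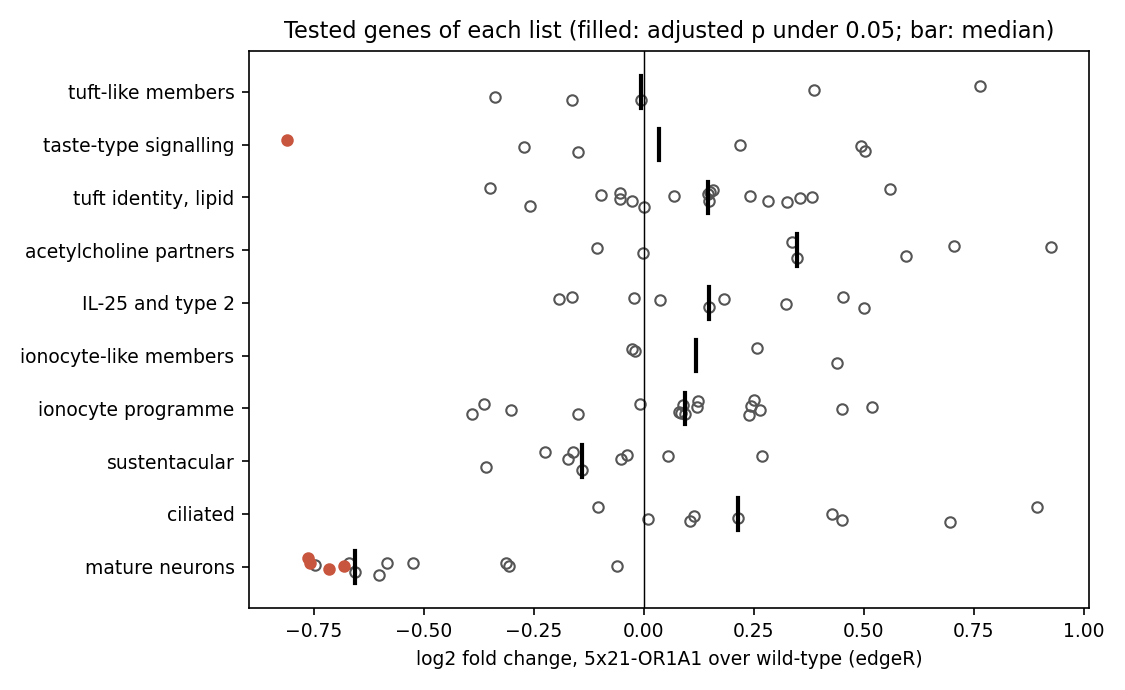
Log2 fold change of 5x21-OR1A1 over wild-type (x axis) for each tested gene of 10 lists (rows); open circles did not pass an edgeR adjusted p of 0.05, filled ones did, and black bars are medians. The 2 microvillous member lists and 4 of the 5 lists around them hold open circles alone; the filled circle among signalling genes is Gng13, and 4 of 13 mature neuron markers are filled at -0.76 to -0.68.

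The 2 scalings tied to a cell type replace only the library factors. By construction they move all genes, members included, by about the same amount. With counts scaled to mature neuron markers, the median of all tested genes was at 0.71 on the log2 scale and 77.3% of them were called (76% higher). Cftr was then at 1.13, Foxi1 at 0.95, Trpm5 at 0.67 and Pou2f3 at 0.36. Relative to the median gene these were 0.42, 0.24, -0.03 and -0.35. That these are close to the values from TMM scaling follows from the shared shift and is no separate support. With sustentacular markers the median gene was at 0.11, Cftr was at 0.54 and Foxi1 at 0.36, and Cftr passed. Trpm5, Ascl3 and Coch, which lie near 0, took the opposite sign under both scalings, and Pou2f3 and Il25 under neuron scaling alone, before the median gene was taken off.

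**Figure D5:**
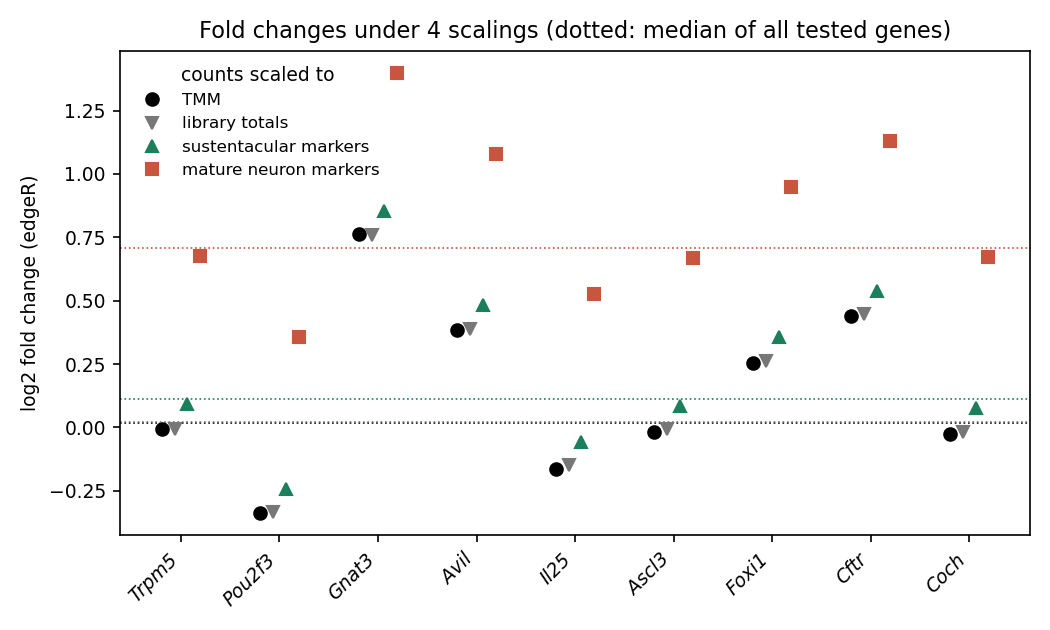
Log2 fold change of the 9 tested members (y axis) with counts scaled by TMM, library totals, sustentacular markers or mature neuron markers; dotted lines give the median of all tested genes under each scaling. Scaling to neuron markers changes only the library factors, so it lifts all genes by about the same amount. The median gene goes from 0.02 to 0.71, and Pou2f3 stays at the bottom and Gnat3 at the top.

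Members of 1 kind did not show 1 pattern over the 6 libraries, though Il25 and Gnat3 had few counts. Pearson's r of log2 CPM with Trpm5 was 0.50 for Gnat3, 0.28 for Avil, 0.01 for Pou2f3 and -0.37 for Il25. With Ascl3 it was 0.70 for Coch, 0.27 for Foxi1 and 0.18 for Cftr, and 0.92 for the tuft-like gene Il25, which like Ascl3 was highest in wild-type library 3. Among 16765 genes at 1 CPM or more, those most like Trpm5 were Kcnk2, 2410022M11Rik, P2ry6, Tbcd and D2hgdh (r of 0.975 to 0.988), and those most like Ascl3 were Bin3, Pdlim1, Gm6142, Hspe1 and Wdr89 (r of 0.981 to 0.992). None of the 10 is in the lists of tuft or ionocyte genes used here. The 16 other genes of the ionocyte programme at that level had a median r of 0.46 with Ascl3, with Hepacam2 highest at 0.89, and 10 collagen and bone markers had a median of 0.60. The 17 tuft identity genes had a median r of -0.04 with Trpm5, beside 0.02 for all genes. These r come from 6 libraries that share their totals and scaling, and are given as a description. In 1 library counting alone gives a coefficient of variation near 20.1% for Il25, 20.6% for Gnat3 and 5.36% for Trpm5. A low r here therefore cannot show that members vary apart, and the 0.92 of Il25 carries the same limit.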

How the data were processed

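Poly-A RNA from dissected main olfactory epithelium was sequenced as nonstranded single-end reads of 100 bp, per the labels' protocols. The authors deposited raw counts, 1 row per gene symbol. The submitters' processing notes name TopHat2 2.1.1, HTSeq 0.9.1 and build GRCm38.p5. The annotation release and the counting options were not given in the sources used here. Columns were matched to libraries by their labels.

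Counts were tested in edgeR 4.0.16 (R 4.3.3) on all genes: TMM scaling, the expression filter by group (minimum count 10, total 15), quasi-likelihood fit on genotype, Benjamini-Hochberg adjustment over 19267 genes. SE is the log2 fold change over the square root of F, and 95% intervals use the fit's degrees of freedom. CPM use TMM-scaled totals. Exonic lengths and coordinates are from GENCODE vM21 (GRCm38; 49695 symbols matched once). Promoters, for 8 of 10 members, are from RefSeq, GRCm38.p6. DESeq2 1.42.0 and limma 3.58.1 were alternatives, beside other scalings, filters, covariates (sex was read from Xist and Ddx3y counts) and left-out libraries. The fit was tested on simulated data.

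The members and lists were chosen with earlier results of these data known. Named genes were the members, the genes of other lists that passed or were most abundant per kb (up to 8 in lists near the members, 3 in others), and the 5 most like Trpm5 and Ascl3. Slc18a3, Hepacam2, Foxj1, Bpifb9a, Bpifb9b, Tas2r108, Sucnr1, Ffar3 and the genes overlapping members were named after their values were seen.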

Additional observations from a re-analysis of the deposited data

How the results depend on the processing

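Pou2f3, Gnat3 and Il25 had means under 5 CPM over all 6 libraries, and Chat had 2 to 5 counts in each. With these levels and 3 libraries a group, small differences were not detectable here. The replicate numbers do not pair the libraries: deviations of same-numbered libraries from their group means correlated at -0.33, 0.07 and -0.17. With the replicate number as a block 377 genes were called, 0 members among them, and Ascl3 was at 0.00272. The total of 523 was 14891 with counts scaled to mature neuron markers, 1194 in DESeq2, 289 with sex as a covariate and 154 at an adjusted p under 0.01; it was 150 to 626 with 1 library left out (wild-type library 2 out, 313; transgenic library 1, 2 or 3 out, 155, 175 or 150). Scaling to neuron markers called 3 tuft-like and 4 ionocyte-like members and put Trpm5 at 0.67, Pou2f3 at 0.36, Il25 at 0.53, Ascl3 at 0.67, Coch at 0.67 and the summed levels at 0.72 and 0.70, beside a median gene at 0.71. DESeq2, sustentacular scaling and the 1 CPM filter each called 1 ionocyte-like member, Cftr; why DESeq2 did was not tested. Without Coch the ionocyte-like sum was at 0.17. Leaving out 1 library called 0 members of either kind and gave summed levels of -0.05 to 0.10 (tuft-like) and -0.08 to 0.12 (ionocyte-like). Values near 0 changed sign: Trpm5 was 0.0910 with sustentacular scaling and -0.10 to 0.10 with 1 library left out. Ascl3 was 0.0844 with sustentacular scaling, 0.0138 in limma-voom, 0.0300 with sex as a covariate and -0.15 to 0.18 with 1 left out. Coch was 0.0752 with sustentacular scaling, 0.0486 with sex as a covariate and -0.13 to 0.0853 with 1 left out, and Il25 was -0.35 to 0.15. There were 142 member values under 16 alternatives. Of these, 115 kept their sign and side of the threshold, 20 changed sign and 10 passed newly. Among the 10, 3 also changed sign, namely Trpm5, Ascl3 and Coch under neuron marker scaling. The 2 marker scalings change only the library factors, so they shift all genes by about the same amount (median gene at 0.71 for neuron and 0.11 for sustentacular markers). The cause of sign changes in the other settings was not tested.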
